A study of Rattus norvegicus with 8 samples.

Results

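The genes described here are the PIM kinases and the feedback inhibitors and transcription factors of the JAK-STAT pathway: Pim1, Pim2, Pim3, Socs1, Socs2, Socs3, Cish, Stat3, Stat5a and Stat6. They were chosen by symbol from the 23487 genes of the count table, with the results of the same contrast already known, so their differences between groups are given as a description and without a test. All 10 genes were found, and all 10 passed the filter on low counts. The libraries were made from peritoneal macrophages sorted by flow cytometry as CD11b/c high, His48 dim cells from female Wistar rats, 8 weeks old, sacrificed 15 days after 1 intraperitoneal injection of 2 mg of carbon nanotubes. The first 4 rats received CNT-7 (MWCNT-XNRI-7), a needle-like nanotube that the study describes as causing mesothelioma, and the other 4 received CNT-T, a tangled nanotube described as not doing so. Untreated rats were not analysed here, so each difference is between the particles and has no baseline. The rats are named by the numbers in their labels, which are 3, 5, 10 and 11 for CNT-7 and 1, 2, 12 and 13 for CNT-T, and each library is taken as 1 rat. The sources used here do not say whether cells of several rats were pooled, in which case the p-values measure only the spread between these samples.

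Cytokines such as the interleukins and colony-stimulating factors bind receptors that carry Janus kinases (JAKs). The JAKs phosphorylate STAT transcription factors, which move to the nucleus and bind target genes. Among these targets are the SOCS genes and Cish, whose proteins shut the same receptors off, and the PIM kinases, which favour survival and growth and are active as soon as they are made. STATs themselves are switched on by phosphorylation, which an RNA measurement does not see. In macrophages, SOCS3 is known for restraining interleukin-6 signalling, SOCS1 for restraining interferon signalling, and CIS, the product of Cish, for restraining receptors that signal through STAT5.

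A palindromic 9-base motif, TTCNNNGAA, is the classical binding motif of STAT factors such as STAT3 and STAT5. The promoter windows of the rat RefSeq annotation (assembly GRCr8, 250 bases before to 50 bases after the start of each gene) were searched for it, and since the motif is its own reverse complement, 1 search covers both strands. A window was found for 9 of the 10 genes, all except Socs2. The stretches of the Cish and Socs1 windows that hold matches are shown because only these windows among the 9 held any. The matches are in capitals, and both stretches are read 5′ to 3′ on the plus strand, which is the strand of both genes. The Cish stretch is chr8:116850719-116850898 and the Socs1 stretch is chr10:5389338-5389426.
Cish: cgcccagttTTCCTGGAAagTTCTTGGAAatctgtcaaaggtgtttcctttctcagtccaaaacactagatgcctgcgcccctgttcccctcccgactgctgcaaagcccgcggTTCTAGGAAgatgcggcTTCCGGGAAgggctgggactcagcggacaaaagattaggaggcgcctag
Socs1: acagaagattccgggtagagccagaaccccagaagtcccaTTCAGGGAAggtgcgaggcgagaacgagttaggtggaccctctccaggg

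The Cish window held 4 matches. They began 241, 230, 136 and 119 bases upstream of the start, so that they formed 2 pairs, the first with starts 11 bases apart and the second with starts 17 bases apart. Socs1 held 1 match, which began 196 bases upstream. Across all 33469 promoter windows of the annotation, 2970 (8.874%) held at least 1 match and 183 (0.547%) held at least 2. Only Cish and LOC120095689 held 4 or more. The windows of Pim1, Pim2, Pim3, Socs3, Stat3, Stat5a and Stat6 held none within these 300 bases. The same motif with 4 bases between the arms, a spacing that STAT6 is known to bind, was present in 7.275% of all windows and in none of the 9. These counts describe letters in a window and not sites shown to be bound, and the assembly differs from the one behind the counts.

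**Figure D1:**
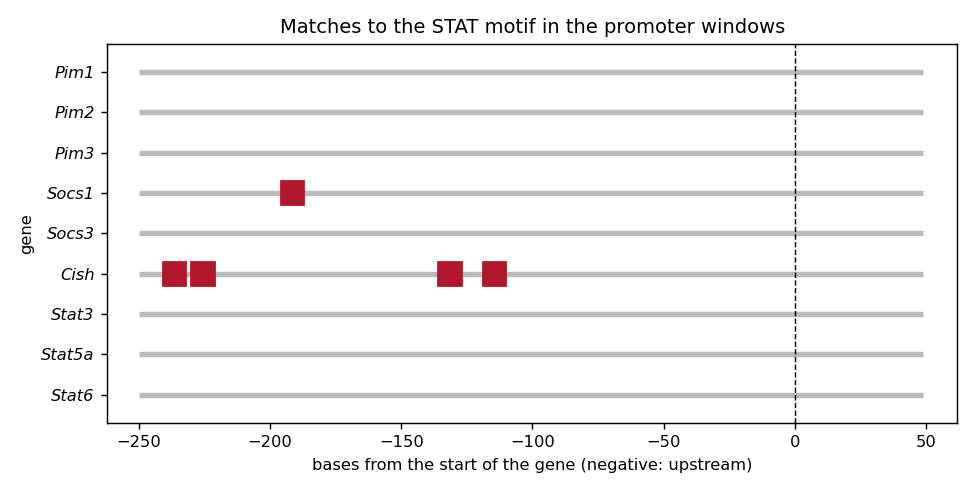
Matches to the STAT motif in the promoter windows of the 9 genes with a window; the x axis gives bases from the start of the gene (negative is upstream) and each box is 1 match. Cish holds 4 boxes in 2 pairs, Socs1 holds 1, and the other windows are empty.

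The libraries held between 27195157 and 33732981 counts, and 3 counts corresponded to at most 0.109 CPM (counts scaled to a common library size, adjusted by TMM). Across the genes tested, r between pairs of libraries was 0.971 to 0.986 within a group and 0.942 to 0.966 between groups on the log2 CPM scale. All 8 macrophage markers examined were detected in the sorted cells. Their summed level was 15600 to 22700 CPM in the CNT-7 rats and 24100 to 34500 CPM in the CNT-T rats, and 2750 to 3360 CPM and 3570 to 4360 CPM without Lyz2, which gave 85.1% of the sum. By edgeR, Cd14 was called higher after CNT-7, Adgre1, Csf1r, Fcgr1a, Cd68 and Aif1 were called lower, and Lyz2 and Mertk did not pass. One CNT-7 library, rat 5, stood apart in T cell receptor genes: the sum of Cd3d, Cd3e and Cd3g was 4.32 CPM there, beside 0.579 to 0.758 CPM in rats 3, 10 and 11. Another, rat 3, stood apart in the eosinophil marker Ccr3, at 8.73 CPM. As these are bulk samples, fewer cells of a type and less RNA per cell cannot be told apart.

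Of the 12124 genes tested with edgeR's quasi-likelihood test, 3383 (27.9%) passed an adjusted p of 0.10, 1686 (13.9%) higher and 1697 (14%) lower after CNT-7. The median log2 fold change of all genes tested was 0.01. Every CNT-7 rat lay above every CNT-T rat for 1490 genes (12.3%). Among the 10 genes described here, 6 passed the same threshold, all of them higher after CNT-7, and 7 had no overlap between the groups. Nothing is read from these counts, because the genes were selected on this contrast. By role, the 3 PIM kinases and 3 of the 4 SOCS genes passed in this fit, and none of the 3 STATs did. This split was not fixed, as Pim2 failed and Socs2, Stat3 and Stat6 passed in some fits that left out a rat. The median log2 fold change was 0.75 for the PIM kinases, 2.72 for the SOCS genes with Cish, and 0.17 for the STATs.

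Pim3 (ENSRNOG00000029698) encodes a serine/threonine kinase that phosphorylates and blocks the death-promoting protein BAD. Its level was 30.7, 37.2, 35.9 and 36.9 CPM in CNT-7 rats 3, 5, 10 and 11. In CNT-T rats 1, 2, 12 and 13 it was 7.20, 6.83, 6.03 and 5.62 CPM. The groups did not overlap, and the lowest CNT-7 rat was 4.26 times the highest CNT-T rat. The means were 35.2 ± 3.05 CPM (SD, n = 4) and 6.42 ± 0.724 CPM (SD, n = 4), a log2 fold change of 2.45 (SE 0.11). Pim3 had the smallest relative spread of the PIM and SOCS genes, with an SD of 8.68% of the mean in CNT-7 rats and 11.3% in CNT-T rats.

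Pim1 (ENSRNOG00000000529), the first known member of the family and a partner of MYC in lymphoma, was 8.34, 7.07, 6.28 and 6.30 CPM in CNT-7 rats 3, 5, 10 and 11. It was 5.02, 5.08, 2.80 and 4.33 CPM in CNT-T rats 1, 2, 12 and 13. The groups were close but did not overlap, and rat 12 was the lowest of all. Pim2 (ENSRNOG00000008177), a kinase known for promoting protein synthesis and survival in blood cells, was 1.74, 1.51, 1.19 and 1.38 CPM in the CNT-7 rats. In the CNT-T rats, in the same order, it was 0.847, 1.09, 0.659 and 0.859 CPM. Its lowest CNT-7 rat was 1.09 times its highest CNT-T rat, and its counts were low, at 20 to 53 per rat. The log2 fold changes were 0.70 (SE 0.20) for Pim1 and 0.75 (SE 0.24) for Pim2, against 2.45 (SE 0.11) for Pim3, so the PIM kinase with the largest difference was also the one with the smallest error.

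**Figure D2:**
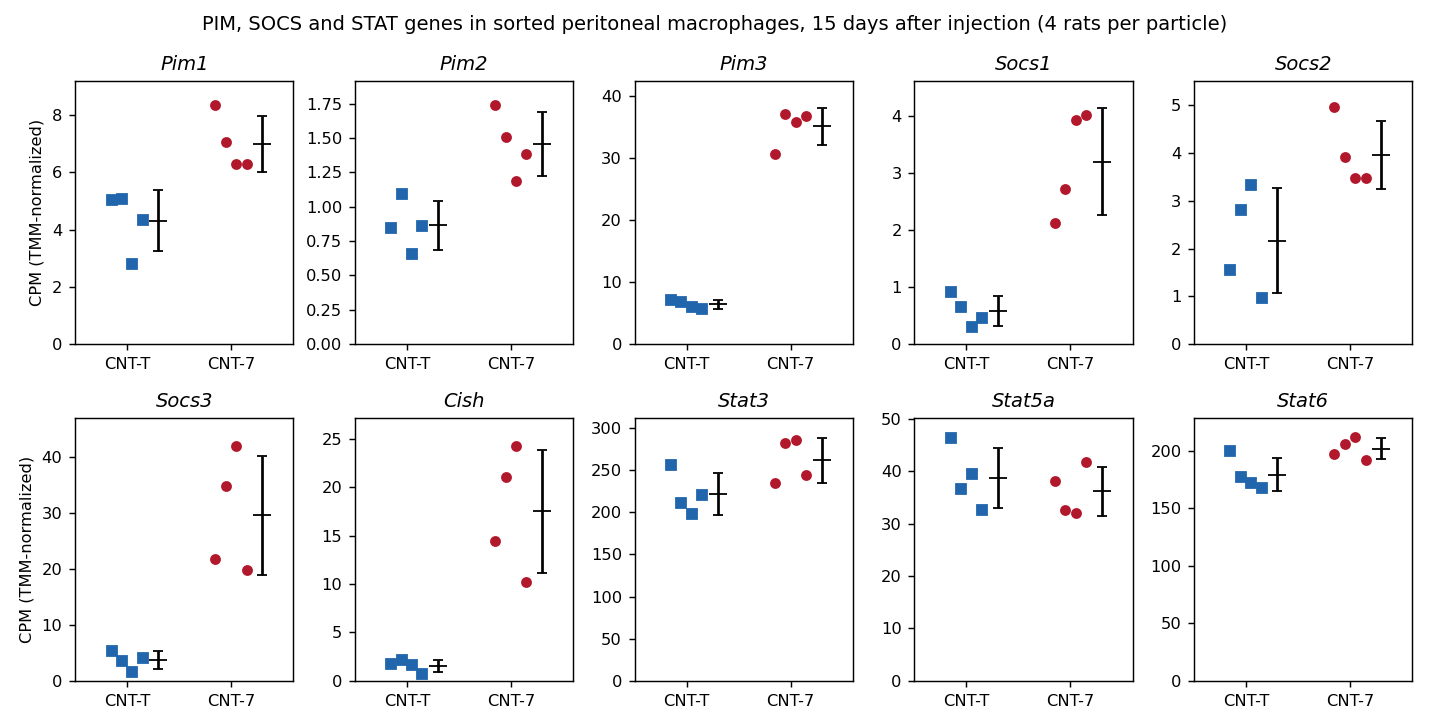
Level of each of the 10 genes in each rat, in TMM-normalized CPM on an axis that starts at 0; squares are CNT-T rats, circles are CNT-7 rats, and the bar is the mean ± SD of 4 rats. The 3 PIM kinases, the 3 SOCS genes and Cish show no overlap between the groups, whereas the 3 STATs overlap.

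Cish (ENSRNOG00000029543), the gene with the 4 motif matches shown above, had the largest difference of the 10. Its level was 14.4, 21.1, 24.3 and 10.2 CPM in CNT-7 rats 3, 5, 10 and 11. In CNT-T rats 1, 2, 12 and 13 it was 1.76, 2.16, 1.68 and 0.68 CPM. The means were 17.5 ± 6.37 CPM (SD, n = 4) and 1.57 ± 0.629 CPM (SD, n = 4), a log2 fold change of 3.46 (SE 0.36). The CNT-7 rats differed among themselves by 2.38 times and the CNT-T rats by 3.17 times, while the lowest CNT-7 rat was 4.73 times the highest CNT-T rat. Without CNT-7 rat 5, which had the highest T cell receptor genes, the log2 fold change was 3.36. In the order of the Cish values above, the summed Cd3 genes were at 0.69, 4.32, 0.758 and 0.579 CPM in the CNT-7 rats, and their part in the Cish difference was not tested.

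Socs3 (ENSRNOG00000002946), which encodes an inhibitor of JAKs at the interleukin-6 receptor chain gp130, was 21.7, 34.8, 42.0 and 19.8 CPM in CNT-7 rats 3, 5, 10 and 11. It was 5.41, 3.61, 1.61 and 4.15 CPM in CNT-T rats 1, 2, 12 and 13. The log2 fold change was 3 (SE 0.36), and 2.91 without CNT-7 rat 5. Socs3 and Cish placed the CNT-7 rats in the same order, with rat 10 highest, then 5, 3 and 11, and so did Stat6. In the CNT-T rats the orders differed: rat 12 was the lowest for Socs3 and rat 13 for Cish.

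Socs1 (ENSRNOG00000002568), whose protein binds JAKs directly and blocks their kinase domain, was 2.13, 2.71, 3.93 and 4.02 CPM in CNT-7 rats 3, 5, 10 and 11. It was 0.913, 0.65, 0.297 and 0.465 CPM in CNT-T rats 1, 2, 12 and 13. The groups did not overlap, and the log2 fold change was 2.45 (SE 0.36), with as few as 9 counts in a rat. In the CNT-7 rats, rat 3 was the lowest for Socs1, while it was the highest for Pim1, Pim2 and Socs2.

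Socs2 (ENSRNOG00000008965), known for restraining growth hormone signalling, was 4.96, 3.92, 3.47 and 3.47 CPM in CNT-7 rats 3, 5, 10 and 11. It was 1.56, 2.81, 3.33 and 0.966 CPM in CNT-T rats 1, 2, 12 and 13. Every CNT-7 rat was above every CNT-T rat, but the lowest CNT-7 rat was only 1.04 times the highest CNT-T rat, and the SD of the CNT-T rats was 50.3% of their mean. The log2 fold change was 0.86 (SE 0.35).

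The transcription factors differed least. Stat3 (ENSRNOG00000019742), which acts below interleukin-6 and interleukin-10, was 234, 282, 286 and 244 CPM in CNT-7 rats 3, 5, 10 and 11. It was 256, 211, 198 and 220 CPM in CNT-T rats 1, 2, 12 and 13, so that the groups overlapped through CNT-T rat 1. Its log2 fold change was 0.24 (SE 0.10). Stat6 (ENSRNOG00000025023), the factor below interleukin-4 and interleukin-13, was 197, 206, 212 and 192 CPM in the CNT-7 rats. In the CNT-T rats, in the same order, it was 200, 177, 172 and 168 CPM. Its log2 fold change was 0.17 (SE 0.08), and CNT-T rat 1 was again the one that overlapped.

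Stat5a (ENSRNOG00000019496), which acts below GM-CSF and interleukin-3, was 38.2, 32.6, 32.1 and 41.8 CPM in CNT-7 rats 3, 5, 10 and 11. It was 46.3, 36.6, 39.4 and 32.6 CPM in CNT-T rats 1, 2, 12 and 13. The groups overlapped over most of their range, and the log2 fold change was -0.10 (SE 0.12). Its close relative Stat5b, which was not among the 10, had a log2 fold change of -0.09 (SE 0.07, edgeR adjusted p = 0.38). Estimated counts may divide reads between similar genes such as Stat5a and Stat5b, so each of these values is less certain than the read depth implies. Over leaving out each rat in turn and the other alternatives tried, the log2 fold change ranged from -0.18 to 0.00 for Stat5a, 0.19 to 0.32 for Stat3 and 0.14 to 0.23 for Stat6.

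**Figure D3:**
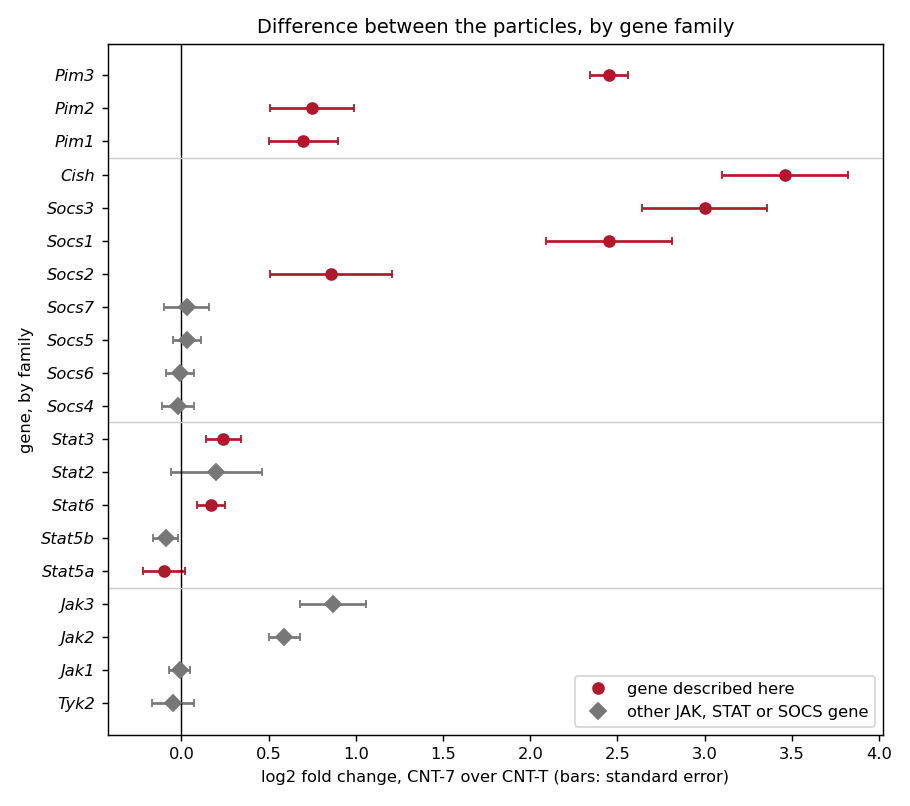
Log2 fold change, CNT-7 over CNT-T, of the 10 genes (circles) and of the other JAK, STAT and SOCS genes tested (diamonds), with bars of 1 standard error, grouped by family. Cish, Socs3, Socs1 and Pim3 lie above 2, while Jak2 lies at 0.59, Jak3 at 0.87, Jak1 at -0.01 and Tyk2 at -0.05.

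Within the groups, the genes did not vary as 1 block. After the mean of each group was subtracted, the log2 CPM of Socs3 and Stat3 had a Pearson r of 0.89 over the 8 rats, and that of Pim1 and Pim2 an r of 0.86. The lowest was that of Socs2 and Socs3, at -0.61, and that of Socs3 and Cish was 0.24. These values rest on 8 libraries whose composition the genes share, and carry no p. The deviations from the group mean reached 1.04 below it on the log2 scale for Socs3 in CNT-T rat 12 and 1.02 below it for Cish in CNT-T rat 13.

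**Figure D4:**
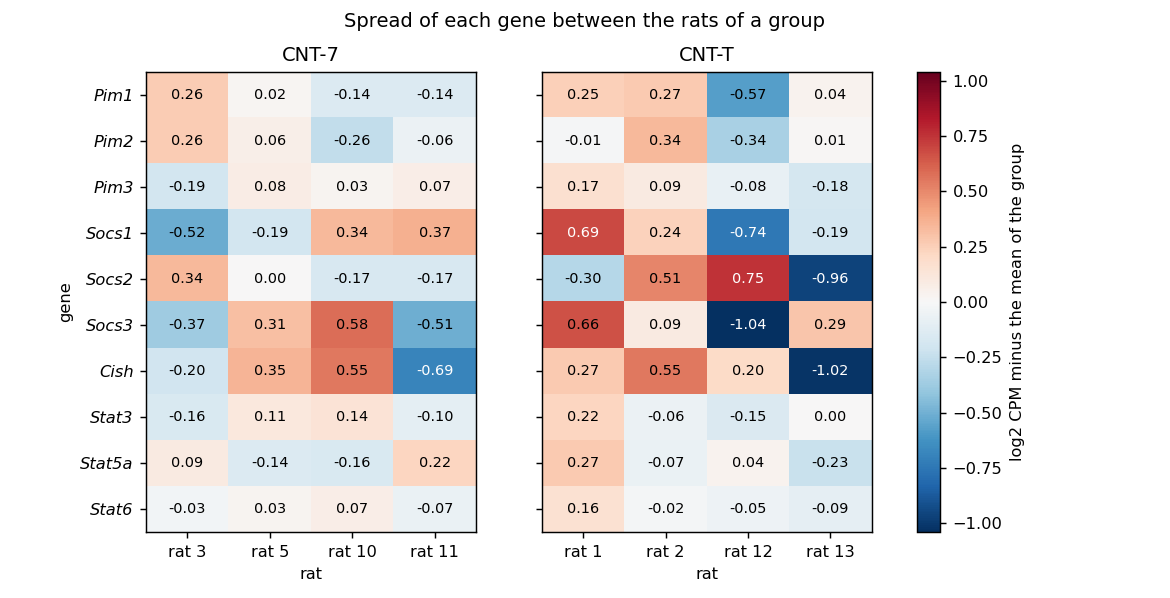
Log2 CPM of each gene in each rat minus the mean of its group, for CNT-7 rats on the left and CNT-T rats on the right; red is above and blue below the group mean. CNT-T rat 12 is low for Pim1, Pim2, Socs1 and Socs3 and high for Socs2, while Pim3 and the STATs stay within 0.27 of their group means.

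The genes whose within-group pattern was most like that of Socs3, among 11104 genes with a mean of at least 1 CPM, were Tle3 (r of 0.98), Sptlc1 (0.969), Dnajb2 (0.964), Sowahc (0.956) and Yy1 (0.952), each over 8 rats. For Cish they were Ormdl2 (r of 0.985), LOC100912399 (0.98), Abhd14a (0.97), Pik3ca (0.97) and LOC100912585 (0.968). For Pim1 they were AABR07035776.1 (r of 0.978), Prkx (0.971), LOC100912604 (0.965), Xpa (0.958) and Ly75 (0.958). The 3 lists shared no gene, and with 8 rats and this many genes searched such values describe these libraries only.

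The other genes of the pathway were taken from lists and tested within the fit over all genes. Of the other JAK, STAT and SOCS genes, 2 of 10 rose after CNT-7 and none fell (the same counts with DESeq2 and at an unadjusted edgeR p under 0.05), with a median log2 fold change of 0.01, as for all genes tested. This was 20% passing, beside 27.9% of all genes tested. Jak2, the kinase of the GM-CSF and interferon-gamma receptors, was 138, 126, 119 and 108 CPM in CNT-7 rats 3, 5, 10 and 11, and 89.6, 75.6, 83.1 and 77.3 CPM in CNT-T rats 1, 2, 12 and 13. It rose by a log2 fold change of 0.59 (SE 0.09, edgeR adjusted p = 0.0024), with the 4 CNT-7 rats above the 4 CNT-T rats. Jak3, the kinase of the common gamma chain that the interleukin-2 and interleukin-4 receptors use, was 13.6, 13.3, 15.3 and 12.3 CPM in the CNT-7 rats and 6.16, 8.42, 5.34 and 9.84 CPM in the CNT-T rats. It rose by a log2 fold change of 0.87 (SE 0.19, edgeR adjusted p = 0.0099), again without overlap.

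The remaining members of these families did not pass the test. The log2 fold change was -0.01 (SE 0.06) for Jak1 and -0.05 (SE 0.12) for Tyk2. Stat2, a factor below the type I interferon receptor, had a log2 fold change of 0.20 (SE 0.26). Socs4, Socs5, Socs6 and Socs7, SOCS family members less tied to cytokine feedback, had log2 fold changes between -0.02 and 0.03. Those of Socs1, Socs2, Socs3 and Cish were 0.86 to 3.46, but these genes were chosen with this contrast known. The difference between the sets was therefore not tested. Stat4 was not analysed here.

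Of the 34 receptors listed, 26 were tested, 8 rose and 2 fell, with a median log2 fold change of 0.16. As a description, 38.5% of those tested passed, beside 27.9% of all genes tested. Il4r, the receptor chain that signals to STAT6, was 190 to 259 CPM in the CNT-7 rats and 84.1 to 127 CPM in the CNT-T rats, and rose by a log2 fold change of 1.07 (SE 0.14, edgeR adjusted p = 0.0011). Csf2rb, the common chain of the GM-CSF, interleukin-3 and interleukin-5 receptors and a user of JAK2 and STAT5, rose by 1.03 on the log2 scale (SE 0.19, edgeR adjusted p = 0.005), from 823 ± 149 to 1680 ± 425 CPM (SD, n = 4 each). Il7r, the interleukin-7 receptor chain, rose by 2.56 on the log2 scale (SE 0.75, edgeR adjusted p = 0.038), but its groups overlapped at 11.6 CPM in CNT-7 rat 11 and 11.7 CPM in CNT-T rat 13. Il15ra, which presents interleukin-15, fell from 34.1 to 35.1 CPM in the CNT-T rats to 16.3 to 21.0 CPM in the CNT-7 rats (log2 fold change -0.96, SE 0.09, edgeR adjusted p = 0.00028). Il13ra1 also fell, by 0.24 on the log2 scale (SE 0.09, edgeR adjusted p = 0.095), and lost its call under both other filters on low counts and in 7 of the 8 fits that left out a rat.

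Other inhibitors of the pathway include phosphatases, adaptors and ubiquitin ligases. Of 16 tested, 3 rose and 1 fell, and the median log2 fold change was 0.06. The share that passed, 25%, was near the 27.9% of all genes tested. Usp18, which blocks the type I interferon receptor, had a log2 fold change of 0.81 (SE 0.28, edgeR adjusted p = 0.071), with CNT-7 rat 11 at 83.3 CPM and CNT-7 rat 10 at 26.6 CPM, inside the CNT-T range of 25.2 to 33.6 CPM. The call for Usp18 was lost when any of 6 of the 8 rats was left out. Dok1, an adaptor that damps kinase signalling, rose by 0.32 (SE 0.10, edgeR adjusted p = 0.046), a call lost without CNT-T rat 2, 12 or 13. Ptprc, the CD45 phosphatase of all leukocytes, rose by 0.31 (SE 0.07, edgeR adjusted p = 0.014). Sla, an adaptor that lowers receptor levels at the cell surface, fell by 1.02 (SE 0.21, edgeR adjusted p = 0.009), from 144 to 158 CPM in the CNT-T rats to 45.3 to 108 CPM in the CNT-7 rats.

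Of 22 cytokine genes listed as ligands, 7 passed the filter on low counts, and edgeR called none of them (the lowest adjusted p was 0.13, for Lif). At an unadjusted p under 0.05, 2 of them were higher and 0 lower, and DESeq2 called 1 higher and 0 lower. Il6, which was singled out after its values were seen because it acts through STAT3, had 13, 11, 12 and 8 counts in CNT-7 rats 3, 5, 10 and 11 and 0, 3, 0 and 3 counts in CNT-T rats 1, 2, 12 and 13. The groups did not overlap, but Il6 did not pass the filter on low counts and was not tested. Il10, whose product also acts through STAT3, was not tested either, with at most 11 counts in a rat. It leaned the other way, with overlap: the CNT-T rats had a mean of 0.17 CPM (range 0 to 0.394). The CNT-7 rats had a mean of 0.062 CPM (range 0 to 0.181). Over receptors, inhibitors, ligands and the other JAK, STAT and SOCS genes together, 16 of 59 genes (27.1%) passed, 13 of them higher and 3 lower, beside 27.9% of all genes.

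Known targets of the STATs were listed by factor, and 23 of the 39 tested (59%) passed, 20 higher and 3 lower. Over all genes tested, 27.9% passed, 13.9% higher and 14% lower. The lists were compiled with earlier results of these data known, so the share is a description. Of 19 STAT6 targets listed, 15 were tested, 10 (66.7%) rose and none fell, with a median log2 fold change of 1.07. The 5 tested that did not pass were Mrc1, Retnlg, Ccl24, Ch25h and Alox15 (edgeR adjusted p of 0.13 to 0.89). DESeq2 also called 0 of the STAT6 targets lower, and 0 were lower at an unadjusted edgeR p under 0.05. Tgm2, a transglutaminase of interleukin-4-treated macrophages, was 3210, 5430, 9510 and 3040 CPM in CNT-7 rats 3, 5, 10 and 11 and 149, 530, 273 and 301 CPM in CNT-T rats 1, 2, 12 and 13 (log2 fold change 4.08, SE 0.49, edgeR adjusted p = 0.00072). The chemokine Ccl17 was 33.8, 11.5, 20.4 and 9.08 CPM in the CNT-7 rats and 1.6, 2.81, 1.25 and 0.787 CPM in the CNT-T rats (log2 fold change 3.52, SE 0.49, edgeR adjusted p = 0.0015). The chemokine Ccl22 was 12.9, 8.61, 7.72 and 0.941 CPM in the CNT-7 rats and 0, 0.325, 0.231 and 0 CPM in the CNT-T rats. Its fitted log2 fold change was 5.67 (SE 0.95, edgeR adjusted p = 0.0033), and it ranged from 5.27 to 6.51 when a rat was left out.

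Of 15 STAT3 targets tested, 7 rose and none fell, with a median log2 fold change of 0.43. As a description, 46.7% passed, beside 27.9% of all genes tested. DESeq2 called 8 higher and 0 lower, and at an unadjusted edgeR p under 0.05 there were 9 higher and 0 lower. Fos, an immediate early transcription factor, was 21.1, 51.8, 28.6 and 22.5 CPM in CNT-7 rats 3, 5, 10 and 11 and 5.51 to 7.24 CPM in the CNT-T rats (log2 fold change 2.28, SE 0.28, edgeR adjusted p = 0.00078). Nfil3, a repressor of interleukin-12 expression, rose from 25.2 ± 2.43 to 62.5 ± 17.5 CPM (SD, n = 4 each, log2 fold change 1.31, edgeR adjusted p = 0.0011). Tnfaip3, the A20 inhibitor of NF-κB, rose from 8.48 ± 1.04 to 17.9 ± 3.01 CPM (SD, n = 4 each, log2 fold change 1.08, edgeR adjusted p = 0.001). Il4r stood in both the receptor list and the lists of STAT3 and STAT6 targets.

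The STAT5 targets moved in both directions, with 4 of 11 higher and 3 lower and a median log2 fold change of 0.42. As a description, 63.6% passed, beside 27.9% of all genes tested. Igf1, a growth factor that macrophages secrete, was 44.1, 20.6, 27 and 32.1 CPM in CNT-7 rats 3, 5, 10 and 11 and 2.57 to 5.05 CPM in the CNT-T rats (log2 fold change 2.93, SE 0.27, edgeR adjusted p = 0.00025). Gadd45g, a growth arrest and stress gene, rose by 1.32 on the log2 scale (edgeR adjusted p = 0.0022). The genes that fell were the cyclin Ccnd1, by 1.03 (edgeR adjusted p = 7e-04), and the survival genes Bcl2, by 0.50 (edgeR adjusted p = 0.033), and Bcl2l1, by 0.49 (edgeR adjusted p = 0.036). The related cyclin Ccnd2 had a log2 fold change of 0.38 (edgeR adjusted p = 0.056), which was lost without CNT-7 rat 5 or CNT-T rat 2. The other gene called higher was Il2ra (log2 fold change 3.61, SE 0.76, edgeR adjusted p = 0.0093), also counted among the receptors that rose. It had as few as 1 count in a rat. Its level was 0.46, 2.14, 0.578 and 0.579 CPM in CNT-7 rats 3, 5, 10 and 11, highest in the rat with the highest Cd3 genes.

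**Figure D5:**
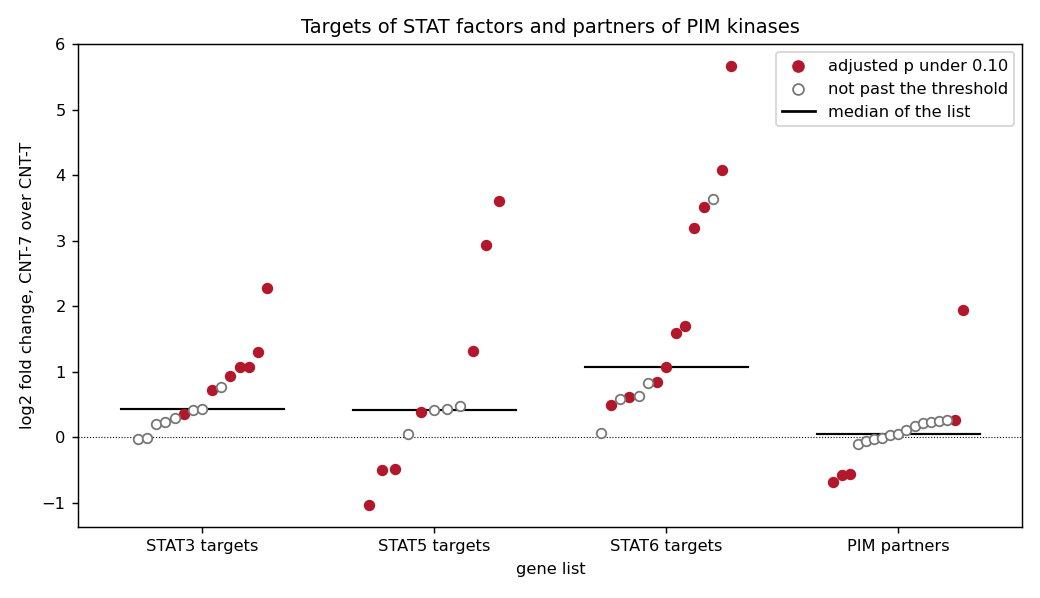
Log2 fold change, CNT-7 over CNT-T, of each tested gene in the lists of STAT3, STAT5 and STAT6 targets and of PIM partners; filled points passed an edgeR adjusted p of 0.10, and the line is the median of the list. The medians are 0.43, 0.42, 1.07 and 0.05.

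Among the substrates and partners of the PIM kinases, 5 of 17 tested genes (29.4%) passed, 2 higher and 3 lower, with a median log2 fold change of 0.05. The share over all genes tested was 27.9%, so the list did not stand out by its share of calls. Cdkn1a, the p21 cell cycle inhibitor that PIM kinases phosphorylate, was 77.5, 98.3, 70.0 and 134 CPM in CNT-7 rats 3, 5, 10 and 11 and 24.6, 30.0, 17.4 and 26.0 CPM in CNT-T rats 1, 2, 12 and 13. It rose by a log2 fold change of 1.95 (SE 0.23, edgeR adjusted p = 0.00063). Cdkn1b, the p27 inhibitor, rose by 0.26 (edgeR adjusted p = 0.042), a call lost without CNT-7 rat 3 or 5 or CNT-T rat 2 or 12. The cell cycle phosphatases Cdc25a and Cdc25c fell by 0.57 (edgeR adjusted p = 0.0071) and 0.56 (edgeR adjusted p = 0.031). The heterochromatin protein gene Cbx3 fell by 0.68 (edgeR adjusted p = 0.003). Myc, a transcription factor that PIM1 stabilizes, had a log2 fold change of -0.01 (SE 0.13, edgeR adjusted p = 0.97), and Bad had 0.04 (SE 0.08, edgeR adjusted p = 0.79).

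Markers of other cell types also differed between the groups. The 8 T cell markers, all detected, summed to 11.8 to 15.2 CPM in the CNT-7 rats and 4.61 to 5.12 CPM in the CNT-T rats. Cd8a and Cd2 were higher and past the threshold, and Lck was not past it (log2 fold change -0.25, edgeR adjusted p = 0.55). Cd8a did not follow the Cd3 genes among the CNT-7 rats. It was 8.73, 2.81, 5.31 and 7.2 CPM in rats 3, 5, 10 and 11, lowest in rat 5, where the Cd3 genes were highest. The others, which include Cd3d, Cd3e and Cd3g, did not pass the filter on low counts and were not tested. The 5 dendritic cell markers, all detected, summed to 5.61 to 11.6 CPM and 4.37 to 8.38 CPM, which overlapped. Clec9a and Ccr7 were higher and past the threshold. Zbtb46 was not past it (log2 fold change -0.22, edgeR adjusted p = 0.65), and Flt3 and Xcr1 were not tested. Zbtb46 gave 76.8% of the summed level, and without it the sums were 1.19 to 5.76 CPM and 0.456 to 0.593 CPM, with no overlap. The 8 mast cell markers summed to 21.9 to 92.0 CPM and 0.0886 to 2.34 CPM, but to 0.558 to 1.56 CPM and 0.0295 to 2.21 CPM without Hdc, which other cells also express. The sums for B cells (0.397 to 2.91 and 0.236 to 0.593 CPM), NK cells (1.54 to 3.32 and 1.53 to 2.54 CPM, with Gzmb at 0) and neutrophils (33.9 to 63.0 and 26.2 to 68.4 CPM, with Mpo at 0) overlapped. Csf3r gave 83.2% of the neutrophil sum, and S100a8 was called lower after CNT-7 (log2 fold change -1.46, edgeR adjusted p = 0.016). The sums for eosinophils (0.181 to 9.33 and 0.107 to 0.359 CPM, with Epx and Prg3 at 0 and the highest value set by Ccr3 in CNT-7 rat 3) overlapped, as did those for mesothelial cells and fibroblasts (0.614 to 1.81 and 0.391 to 1.02 CPM, with Upk3b and Wt1 at 0). Socs1, Socs3, Cish, Pim1 and Pim2 are also expressed by lymphocytes and dendritic cells, and the part of the T cell and dendritic cell markers in their differences was not tested. That part was not tested for the STAT target genes either. CNT-7 rat 3, the rat with the highest Ccr3, was also the highest CNT-7 rat for Pim1, Pim2 and Socs2. Without it their log2 fold changes were 0.6, 0.65 and 0.74. The part of eosinophil markers in these differences was not tested.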

How the data were processed

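RNA from the sorted macrophages of 8 rats was sequenced as stranded, paired-end libraries. The authors quantified the reads with Salmon (version not given in the sources used here) against Ensembl rat cDNA (Rnor_6.0) and imported them per gene. They deposited estimated counts per gene, without normalization, for 23487 genes. These were already whole numbers, so rounding changed none, and 0 columns were left out. Length offsets of the authors' own fit were not used here. Transcript lengths were not used, so levels are not compared between genes.

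Groups and rat numbers came from the labels. Genes passing edgeR's default filter (12124) were scaled by TMM and tested for CNT-7 over CNT-T with glmQLFit and glmQLFTest (edgeR 4.0.16, limma 3.58.1, R 4.3.3), with Benjamini-Hochberg adjustment over all genes tested and a threshold of 0.10, the one the study's methods use. SE was derived from the fold change and its F statistic (their ratio, with F under a root). CPM are the deposited counts scaled the same way. The 10 genes and all gene lists were chosen with earlier results of these data known. From each list other than the JAK, STAT and SOCS genes, the 3 passing genes with the largest rise and the 3 with the largest fall, among those with a mean of at least 1 CPM, were named. Il2ra, which passed but was below that mean, other genes named without passing, and the markers singled out were chosen after their values were seen. Alternatives were DESeq2 1.42.0, upper-quartile scaling, other filters on low counts, a threshold of 0.05 and leaving out each rat. One gene of the pathway and its target list are not reported here. The scripts were tested on simulated data. Promoters came from RefSeq (GRCr8), and no coordinates were converted between assemblies.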

Additional observations from a re-analysis of the deposited data

Results flagged for a closer look

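None of the 10 genes had a rat that stood apart by Dixon's test at its 95% critical value for 4 rats. In 92 groups of 4 rats examined, about 4.6 are expected to do so by chance (1 in 20), and 6 did, all among other genes. For Tyk2, the highest or lowest rat's gap relative to the range was 0.934 for CNT-7 rat 10, the lowest at 74.0 CPM against 97.1 to 98.7 CPM, and 0.851 for CNT-T rat 13, the lowest at 78.8 CPM against 99.1 to 103 CPM. The same ratio was 0.874 for Ptprc in CNT-T rat 2, the lowest at 586 CPM, and 0.832 for Sla in CNT-T rat 12, the highest at 158 CPM. It was 0.857 for Il15ra in CNT-7 rat 11, the highest at 21.0 CPM, and 0.832 for Nfil3 in CNT-7 rat 10, the highest at 88.5 CPM.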

How the results depend on the processing

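Leaving out each rat in turn gave 2578 to 3515 genes past the threshold over all genes, 5 to 7 of the 10 genes described, 14 to 18 of the other pathway genes, 21 to 26 of the STAT targets and 4 to 6 of the PIM partners. DESeq2 gave 3633, 7, 19, 25 and 5, and a threshold of 0.05 with edgeR gave 2507, 5, 14, 21 and 5. With at least 10 counts required in every rat, Socs1 was not tested. The log2 fold change kept its direction under all alternatives tried for the 10 genes, with ranges of 0.54 to 0.79 for Pim1, 0.63 to 0.88 for Pim2, 2.39 to 2.51 for Pim3, 2.23 to 2.74 for Socs1, 0.62 to 1.14 for Socs2, 2.75 to 3.24 for Socs3 and 3.22 to 3.66 for Cish, and with Stat5a reaching 0.00. Genes near no difference changed sign. Over leaving out each rat, their log2 fold changes were -0.13 to 0.04 for Tyk2, -0.13 to 0.37 for Stat2, -0.09 to 0.04 for Socs4, -0.02 to 0.07 for Socs5, -0.04 to 0.02 for Socs6 and -0.01 to 0.08 for Socs7. Without CNT-7 rat 10 the log2 fold change was 0.04 for Tyk2, -0.01 for Socs5 and -0.01 for Socs7. Without CNT-7 rat 11 it was -0.13 for Stat2, 0.04 for Socs4 and 0.02 for Socs6. Without CNT-T rat 13 it was 0.01 for Socs4 and 0.00 for Socs6, without CNT-T rat 12 it was -0.02 for Socs5, and without CNT-T rat 2 it was 0.00 for Socs7. The cause was not tested. Of the 10 genes, Pim2 did not pass without CNT-7 rat 3 or 5 or without CNT-T rat 1, 12 or 13. Socs2 passed with DESeq2 and without CNT-T rat 12, and Stat3 and Stat6 passed without CNT-T rat 1. Among the other genes named, Usp18 (edgeR adjusted p 0.11 to 0.15) and Dok1 (0.1 to 0.12) lost their calls when some rats were left out. So did Il13ra1 (0.1 to 0.19, which includes both other filters on low counts), Ccnd2 (0.13 and 0.15) and Cdkn1b (0.1 to 0.12). No paired analysis was run, because the labels give no pairing of rats between the groups. The lowest count in a rat was 20 for Pim2, 19 for Cish and 9 for Socs1.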

Other observations

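Within the T cell marker list, Cd3d, Cd3e and Cd3g, which set CNT-7 rat 5 apart, did not pass the filter on low counts and were not tested. The sum of Cd3d, Cd3e and Cd3g was 0.69, 4.32, 0.758 and 0.579 CPM in CNT-7 rats 3, 5, 10 and 11 and 0.359, 0.266, 0.494 and 0.0716 CPM in CNT-T rats 1, 2, 12 and 13. Cd8a, which gave 32.1% of the list's summed level, rose by a log2 fold change of 2.74 (edgeR adjusted p = 0.001), and Cd2 by 3.48 (edgeR adjusted p = 7e-04). Without Cd8a, the list summed to 4.63 to 12.4 CPM in the CNT-7 rats and 3.75 to 4.40 CPM in the CNT-T rats.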
